A study of Mus musculus with 10 samples.

Results

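The fuel switch genes were 10 mouse genes whose products set whether a muscle fibre burns glucose or fat: Pdk4, Pdk2, Angptl4, Cpt1b, Ucp3, Lpl, Hk2, Slc2a4, Cd36 and Acadm. They were chosen by name, with earlier results of these data known. They are 10 of the 26180 curated RefSeq genes of the mouse build GRCm38, and all 10 were found in the annotation. Chromatin immunoprecipitation with sequencing (ChIP-seq) had been done on skeletal muscle of C57BL/6J mice, given as 10 weeks old in the labels, which were either fed or starved for 24 h. In each condition there was 1 library with an antibody to the glucocorticoid receptor (GR), 1 to the histone demethylase LSD1, 1 to histone H3 monomethylated at lysine 9 (H3K9me1), 1 to the dimethylated form (H3K9me2) and 1 of input DNA, 10 libraries in all and 8 peak lists. With 1 library per antibody and condition nothing could be tested between fed and starved, and every difference is a difference between these libraries. How many animals went into each library, and whether they were pooled, is not given in the sources used here, and the tissue was whole muscle, so that a weaker peak in every nucleus and the same peak in fewer nuclei cannot be told apart. By the labels, the libraries carry one of 2 library codes. Both GR libraries share a code, both LSD1 libraries share the other, and for H3K9me1 and H3K9me2 the fed library has one code and the starved library the other, so that condition and code cannot be told apart for these marks.

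In fasting, muscle spares glucose by closing its pyruvate dehydrogenase complex and by taking up and oxidising more fatty acids. PDK4 and PDK2 are the kinases that shut the complex, ANGPTL4 inhibits lipoprotein lipase (LPL), which frees fatty acids from circulating triglycerides, CD36 takes them into the fibre, CPT1B passes them into mitochondria and ACADM oxidises those of medium chain length. UCP3 is a mitochondrial carrier that is raised in fasting muscle, SLC2A4 (GLUT4) is the insulin-responsive glucose transporter and HK2 phosphorylates the glucose that enters. GR is a receptor of the stress and fasting hormone corticosterone that binds DNA as a dimer, LSD1 removes methyl groups from histones, and H3K9me2 is known as a mark of silent chromatin.

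A peak was counted at a gene when its midpoint lay in the gene body or within 30 kb of a transcription start site (TSS), a window of 60 kb for most members and of 137 kb for Cd36. The value of a peak is its fold enrichment, the ratio of ChIP signal over input as the peak caller gave it, with a q-value, the false discovery rate of that call within its own library. Peaks of GR and LSD1 that overlapped at a member were joined into 89 sites. A site can therefore hold peaks that are linked only through another peak. The sequences of 3 sites are shown first, because they carried the highest GR fold enrichment at Ucp3, Pdk4 and Hk2. Capitals mark a GRE-like sequence in Hk2 (AGAACA, any 3 bases, TGTTCT, with at most 1 mismatch, here with 0) and 2 DR1-like sequences in Pdk4 (AGGTCA, any 1 base, AGGTCA, with at most 2 mismatches), both searched on both strands. A GRE is the element to which GR dimers bind, and DR1 is that of the fatty acid receptors PPAR with RXR. In the Ucp3 stretch no match was found, while the wider starved GR peak of that site holds 2 overlapping DR1-like sequences outside the stretch, at 100461403 to 100461415 and 100461410 to 100461422 on chromosome 7. All are on the plus strand of GRCm38.p6, where Hk2 and Pdk4 themselves are transcribed from the minus strand.
Hk2 intron, chr6:82771130-82771344: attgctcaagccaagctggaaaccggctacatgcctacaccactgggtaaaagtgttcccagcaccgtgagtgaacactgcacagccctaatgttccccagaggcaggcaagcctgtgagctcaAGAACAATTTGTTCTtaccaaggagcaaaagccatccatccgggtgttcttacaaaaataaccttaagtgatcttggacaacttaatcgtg
Pdk4 upstream, chr6:5509813-5509920: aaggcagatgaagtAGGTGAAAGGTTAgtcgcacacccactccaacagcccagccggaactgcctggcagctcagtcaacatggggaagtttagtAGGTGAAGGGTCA
Ucp3 upstream, chr7:100461663-100461874: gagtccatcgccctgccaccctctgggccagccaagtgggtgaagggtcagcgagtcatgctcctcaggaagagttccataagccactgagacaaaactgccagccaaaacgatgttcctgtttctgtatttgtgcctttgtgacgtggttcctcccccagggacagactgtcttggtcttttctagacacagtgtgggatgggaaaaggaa
The Hk2 stretch is the 215 bases shared by the fed and starved GR peaks, and its GRE-like sequence lies at 82771254 to 82771268 on chromosome 6. The Pdk4 stretch is the 108 bases common to the peaks of all 4 GR and LSD1 lists. The Ucp3 stretch is the 212 bases shared by the GR and LSD1 peaks of fed muscle.

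GR peaks of both conditions and LSD1 peaks of fed muscle were found at most fuel switch genes, more often than at the genes of the genome at large. In fed muscle 8 of 10 members had a GR peak, against 43.1% of all genes, and in starved muscle 10 of 10, against 66.5%. For LSD1 it was 8 of 10 against 51.1% when fed, and 10 of 10 when starved, where 83.7% of all genes already had one. The deposited LSD1 list of starved muscle is far longer than the fed one, the reverse of the order described in the study, and it may be another version of the list, which touches every count of LSD1 peaks in starved muscle given here. For H3K9me1 it was 4 of 10 against 38% when fed and 8 of 10 against 65.6% when starved. H3K9me2 peaks lay at 10 of 10 members in fed muscle, where 95.5% of all genes had one, and at 0 of 10 in starved muscle, where 10.2% did. A peak in all 4 GR and LSD1 lists was found at 7 members (Pdk4, Pdk2, Angptl4, Ucp3, Hk2, Slc2a4 and Acadm), against 34.4% of all genes. The lists themselves differed widely in length, from 6624 peaks (H3K9me2 starved) to 171402 (H3K9me2 fed), with 14108 and 37783 for GR and 16616 and 66332 for LSD1, fed and starved. Sequencing depth is unknown. The labelled tissue was checked on promoters: 5 of 9 skeletal muscle markers held a GR peak in each condition and 4 of 9 an LSD1 peak. The myosin genes Myh4, Myh1 and Myh2 held neither in any list. Of 8 markers of other cell types none held a GR peak and 1 (Pecam1, of endothelium) an LSD1 peak, in starved muscle. Over all genes, promoters with a peak were 13.4% and 23.3% for GR and 22.4% and 16.2% for LSD1, fed and starved. With so few markers this says little about other cell types.

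**Figure D1:**
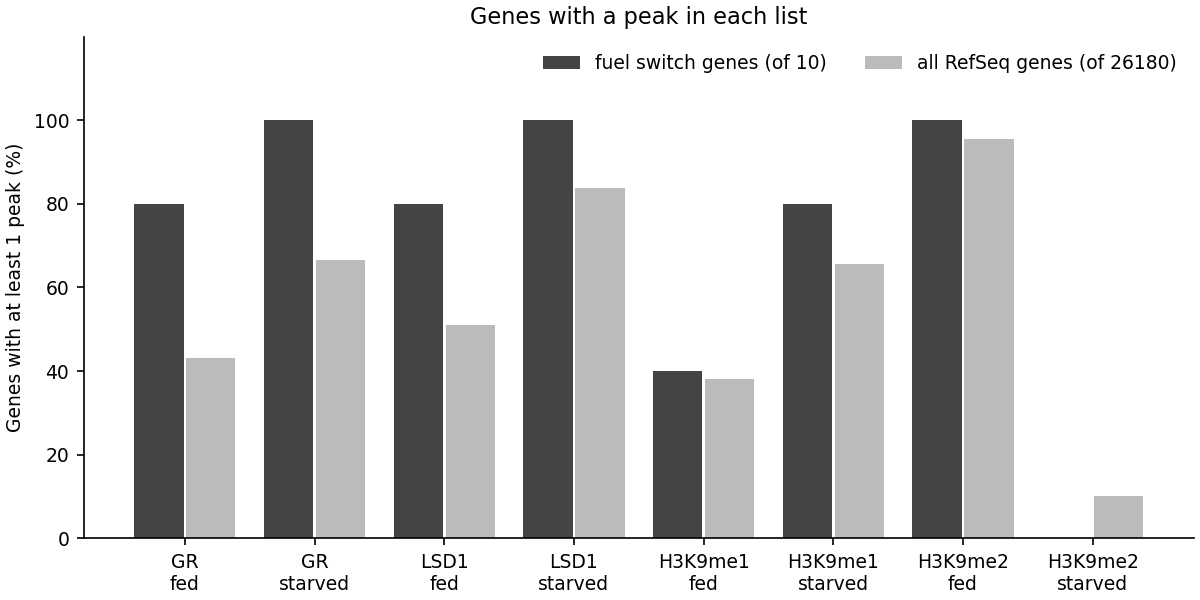
Bars give the share of genes (%) with at least 1 peak in each of the 8 lists (1 library each), for the 10 fuel switch genes (dark) and all 26180 RefSeq genes (light). The fuel switch genes stand above the rest for GR (8 of 10 fed and 10 of 10 starved) and for LSD1 fed (8 of 10). LSD1 starved is at 10 of 10 where 83.7% of all genes have a peak. They stand close to the rest for H3K9me1 fed and H3K9me2 fed, and at 0 for H3K9me2 starved.

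Per length of window, the members held 4.02 GR peaks per 100 kb when fed and 7.31 when starved, against 1.06 and 2.89 over the windows of all genes, ratios of 3.79 and 2.53. LSD1 peaks stood at 3.87 and 6.60 per 100 kb against 1.38 and 3.23, ratios of 2.80 and 2.04. The ratio was lower for the histone marks, 1.75 and 1.14 for H3K9me1 and 1.19 for H3K9me2 in fed muscle. The number of GR peaks per member ran from 0 to 6 in fed muscle with a median of 2.5, and from 1 to 11 in starved muscle with a median of 5.5. The height of the peaks was ordinary: the median fold enrichment at the members was 3.56 for GR fed (3.29 over the list), 2.77 for GR starved (2.70), 4.01 for LSD1 fed (4.03) and 3.34 for LSD1 starved (3.44).

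**Figure D2:**
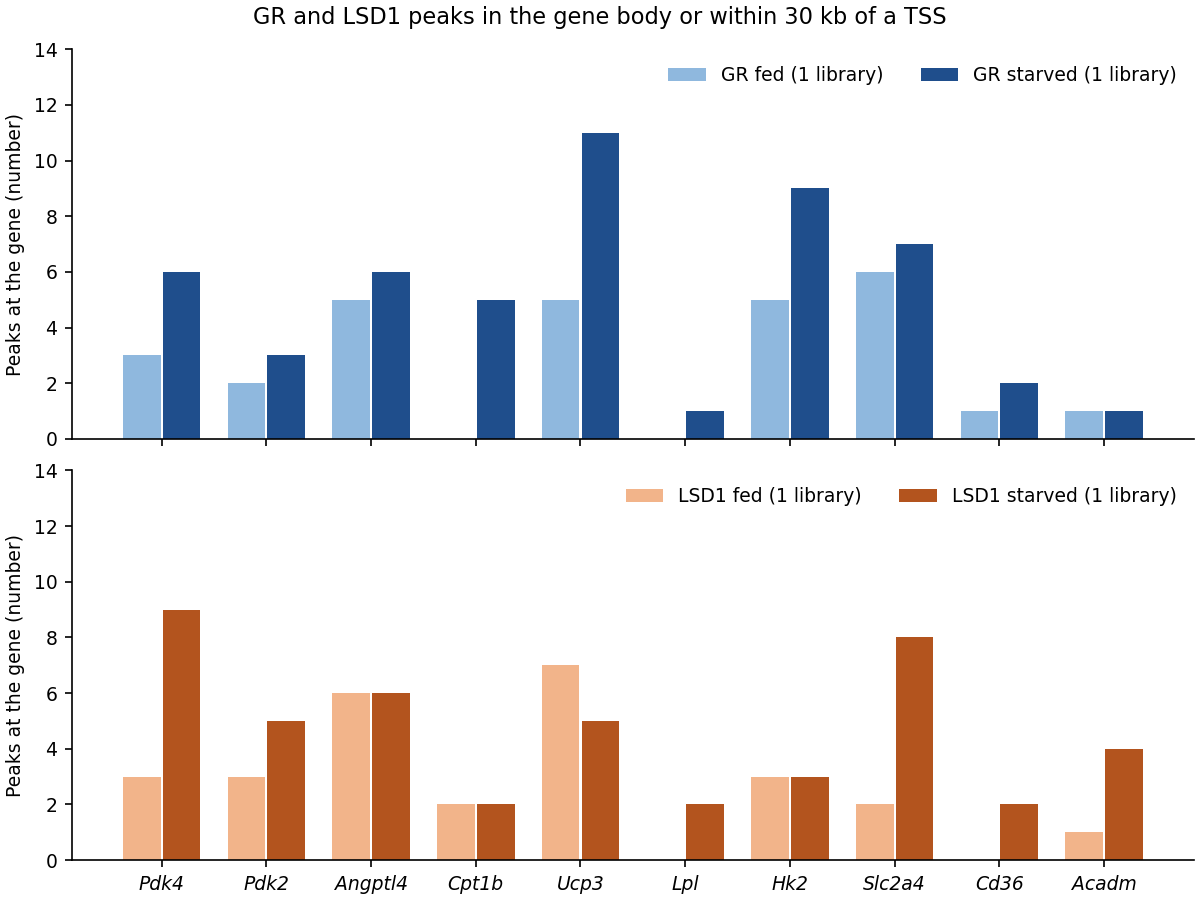
Bars give the number of GR peaks (top) and LSD1 peaks (bottom) at each fuel switch gene in the fed (light) and starved (dark) library. GR numbers are higher starved at 9 genes and equal at Acadm; LSD1 numbers are higher starved at 6 genes, equal at 3 and lower at Ucp3.

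At a q-value of at most 0.01, the threshold named in the methods, GR peaks remained at most members and LSD1 peaks of starved muscle did not. GR was then at 8 of 10 members fed, against 33.6% of all genes, and at 9 of 10 starved, Lpl being the one without, against 40.6%. LSD1 was at 7 of 10 fed, without Lpl, Hk2 and Cd36, against 32.4%, and at 2 of 10 starved, Pdk4 and Pdk2, against 24%. A GR peak with a q-value of at most 1e-05 lay at 6 of 10 members in fed muscle (Pdk4, Angptl4, Ucp3, Hk2, Slc2a4 and Acadm), against 15.2% of all genes. In starved muscle it lay at 7 of 10 (the same 6 and Cpt1b), against 11.3%. No LSD1 peak at a member reached this q-value in either condition, where 1.86% of all genes when fed and 0.802% when starved had such a peak. Pdk2, Lpl and Cd36 had no GR peak of this confidence.

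Among the pyruvate dehydrogenase kinases, Pdk4 (chromosome 6, 5483351 to 5496278, minus strand) held 3 GR peaks fed and 6 starved, and 3 LSD1 peaks fed and 9 starved. Its tallest site lay 13.5 kb upstream of the TSS, between genes, at 5509202 to 5510440. GR fold enrichment there was 7.53 in fed muscle (q = 6.9e-27), above 97.4% of its list, and 5.81 in starved muscle (q = 4.95e-18), above 99.0% of its list. LSD1 fold enrichment at the same place was 4.33 and 4.01. The Pdk4 promoter, defined here as 1000 bp upstream to 100 bp downstream of the TSS, also held a peak in all 4 lists. There the GR fold enrichment was the higher in starved muscle, 4.52 (q = 5.84e-15) against 3.64 (q = 4.03e-07), while for LSD1 it was the lower, 3.27 against 4.34. A further site in all 4 lists lay 2.64 kb upstream, with GR at 3.14 fed and 3.55 starved and LSD1 at 4.83 and 3.17. So 3 Pdk4 sites were called in every GR and LSD1 library, and at both sites nearest the TSS GR was the higher in starved muscle. No other gene lies in the window with its TSS, and Pdk4 had 0 and 2 H3K9me1 peaks and 4 and 0 H3K9me2 peaks, fed and starved.

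Pdk2 (chromosome 11, 95026258 to 95041371, minus strand) held lower and fewer GR peaks than Pdk4. It had 2 GR peaks fed and 3 starved, 3 LSD1 peaks fed and 5 starved, 0 and 1 H3K9me1 peaks and 13 and 0 H3K9me2 peaks. Its promoter held a GR peak in starved muscle alone, at 3.36 (q = 5.89e-05). The fed GR peaks, at 3.08 and 3.03, lay inside the gene, 0.379 kb and 1.18 kb downstream of the inner of its 2 TSSs. LSD1 was found at the promoter in both conditions, at 3.66 fed and 3.89 starved, and a second fed LSD1 promoter peak stood at 3.58. The GR and LSD1 peaks at the Pdk2 TSS overlapped both an H3K9me1 peak of starved muscle (3.99) and an H3K9me2 peak of fed muscle (3.09). Of the 13 GR and LSD1 peaks counted at Pdk2, 9 had its TSS as the nearest, and the others lay nearer to Samd14 or Itga3.

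The genes of lipid supply differed among themselves. Angptl4 (chromosome 17, 33774900 to 33781575, minus strand) held 5 GR peaks fed and 6 starved, and 6 LSD1 peaks in each condition. It also had 2 H3K9me1 peaks in each condition and 5 and 0 H3K9me2 peaks. The site of highest GR fold enrichment with a peak in all 4 lists lay 24.0 kb downstream, in an intron of Rab11b, at 4.29 fed (q = 1.48e-06) and 4.09 starved (q = 1.16e-07) for GR and at 4.20 and 4.06 for LSD1. Upstream by 7.24 kb, a site held GR at 4.30 fed (q = 2.14e-06) and 3.53 starved with LSD1 at 4.24 in fed muscle alone. An intronic site 1.84 kb into Angptl4 was in all 4 lists, at 3.22 and 2.54 for GR. By midpoint its promoter held only an LSD1 peak of starved muscle, at 3.20 (q = 0.0726). That peak was part of a site 0.169 kb into the gene, which in fed muscle held LSD1 at 4.37 (q = 0.00211) and GR at 2.66. The midpoints of these fed peaks lay just past the promoter limit. Of its 23 GR and LSD1 peaks, 15 had the Angptl4 TSS as the nearest.

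Lpl, the lipase that ANGPTL4 inhibits (chromosome 8, 68880555 to 68906932, plus strand), held the fewest. It had no GR or LSD1 peak in fed muscle, and in starved muscle 1 intronic GR peak at 2.77 (q = 0.0192) and 2 intronic LSD1 peaks, the higher at 3.33. Its H3K9me1 peaks were 2 fed and 0 starved and its H3K9me2 peaks 4 and 0. Cd36 (chromosome 5, 17781690 to 17888959, minus strand), in the longest window, had 1 GR peak fed and 2 starved, no LSD1 peak fed and 2 starved, 0 and 1 H3K9me1 peaks and 7 and 0 H3K9me2 peaks. The fed GR peak lay in an intron at 3.47 (q = 0.00113). In starved muscle GR stood at 3.25 in another intron and at 2.65 (q = 0.0439) at a promoter, and no Cd36 site was in more than 1 list. Lpl and Cd36 were thus the 2 members with no site shared between GR and LSD1.

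Of the mitochondrial genes, Cpt1b (chromosome 15, 89416405 to 89425862, minus strand) had GR peaks in starved muscle alone, 0 fed and 5 starved. It held 2 LSD1 peaks in each condition, 0 and 1 H3K9me1 peaks and 6 and 0 H3K9me2 peaks. The starved GR peak at its promoter had a fold enrichment of 3.85 (q = 3.99e-07), above 95.2% of that list. LSD1 was at this promoter in both conditions, at 4.10 fed and 3.90 starved. The tallest peak in the window was of LSD1 in fed muscle, 5.32 (q = 4.14e-05), which lay 3.88 kb upstream in an exon of Chkb, the neighbouring choline kinase gene. Of the 9 GR and LSD1 peaks 6 were nearest to the Cpt1b TSS.

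Acadm (chromosome 3, 153922353 to 153944643, minus strand) had its GR peaks at the promoter and nowhere else, 1 in each condition. GR stood at 4.03 fed (q = 5.13e-07) and 3.37 starved (q = 7.3e-06). LSD1 at the same promoter stood at 4.53 fed and 3.33 starved, and an H3K9me2 peak of fed muscle, at 3.03, overlapped the site. In all, Acadm had 1 LSD1 peak fed and 4 starved, 0 and 3 H3K9me1 peaks and 8 and 0 H3K9me2 peaks.

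Ucp3 (chromosome 7, 100472991 to 100486432, plus strand) held the tallest GR peak of any member. Its joined site lay 11.4 kb upstream, in an intron of C2cd3, with the Ucp3 TSS as the nearest. The fed peak itself had its midpoint at 11.2 kb. Fold enrichment was 11.16 in fed muscle (q = 1.64e-63), above 99.5% of the list, and 9.27 in starved muscle (q = 1.45e-59), above 99.8%. LSD1 had a peak there in fed muscle at 3.86 and none in starved muscle. A second site 7.24 kb upstream was in all 4 lists, GR at 4.21 fed (q = 1.91e-09) and 4.15 starved (q = 1.76e-10) and LSD1 at 3.68 and 2.93. Another in all 4 lists lay over the TSS and inside the gene, where GR stood at 3.65 fed (q = 3.98e-06) and 3.03 starved. Its starved GR peak, from 100472673 to 100475141, spanned the TSS. So the tall sites of Ucp3 lay upstream. No GR or LSD1 peak had its midpoint in the promoter, although the starved GR peak across the TSS overlapped it. Ucp3 had 5 GR peaks fed and 11 starved, 7 LSD1 peaks fed and 5 starved, 3 and 2 H3K9me1 peaks and 10 and 0 H3K9me2 peaks. Of its 28 GR and LSD1 peaks, 22 were nearest to its own TSS, and the other 6 to that of Ucp2.

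Of the glucose genes, Hk2 (chromosome 6, 82725025 to 82774454, minus strand) had GR more than LSD1. It held 5 GR peaks fed and 9 starved, 3 LSD1 peaks in each condition, 1 and 0 H3K9me1 peaks and 7 and 0 H3K9me2 peaks. The tallest GR site was the intronic one with the GRE-like sequence shown above, 3.19 kb downstream of the TSS in the fed peak. It stood at 5.51 fed (q = 8.85e-14) and 3.12 starved (q = 0.000574), with no LSD1 peak in either condition and a fed H3K9me1 peak across it at 3.58. A further intronic site 18.1 kb into the gene held GR at 4.53 fed (q = 4.86e-09) and 3.03 starved and LSD1 at 3.39 in fed muscle. At the Hk2 promoter GR stood at 4.13 fed (q = 4.86e-09) and 3.41 starved (q = 1.98e-06), again without LSD1. All 20 of its GR and LSD1 peaks were nearest to its own TSS.

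Slc2a4 (chromosome 11, 69942286 to 69948197, minus strand) held 6 GR peaks fed and 7 starved, 2 LSD1 peaks fed and 8 starved, 0 and 1 H3K9me1 peaks and 5 and 0 H3K9me2 peaks. A broad site over its TSS was in all 4 lists. In fed muscle it held 2 GR peaks, one inside the gene at 4.33 (q = 1.1e-09) and one at the promoter at 3.48 (q = 1.32e-06). In starved muscle 1 GR peak of 2318 bp covered both, at 3.87 (q = 2.12e-09). LSD1 at the promoter stood at 4.10 fed and, in 2 peaks, at 3.13 and 3.21 starved. The window is crowded: only 8 of the 23 GR and LSD1 peaks had the Slc2a4 TSS as the nearest, and the others lay nearer to Ybx2, Eif5a or Cldn7.

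**Figure D3:**
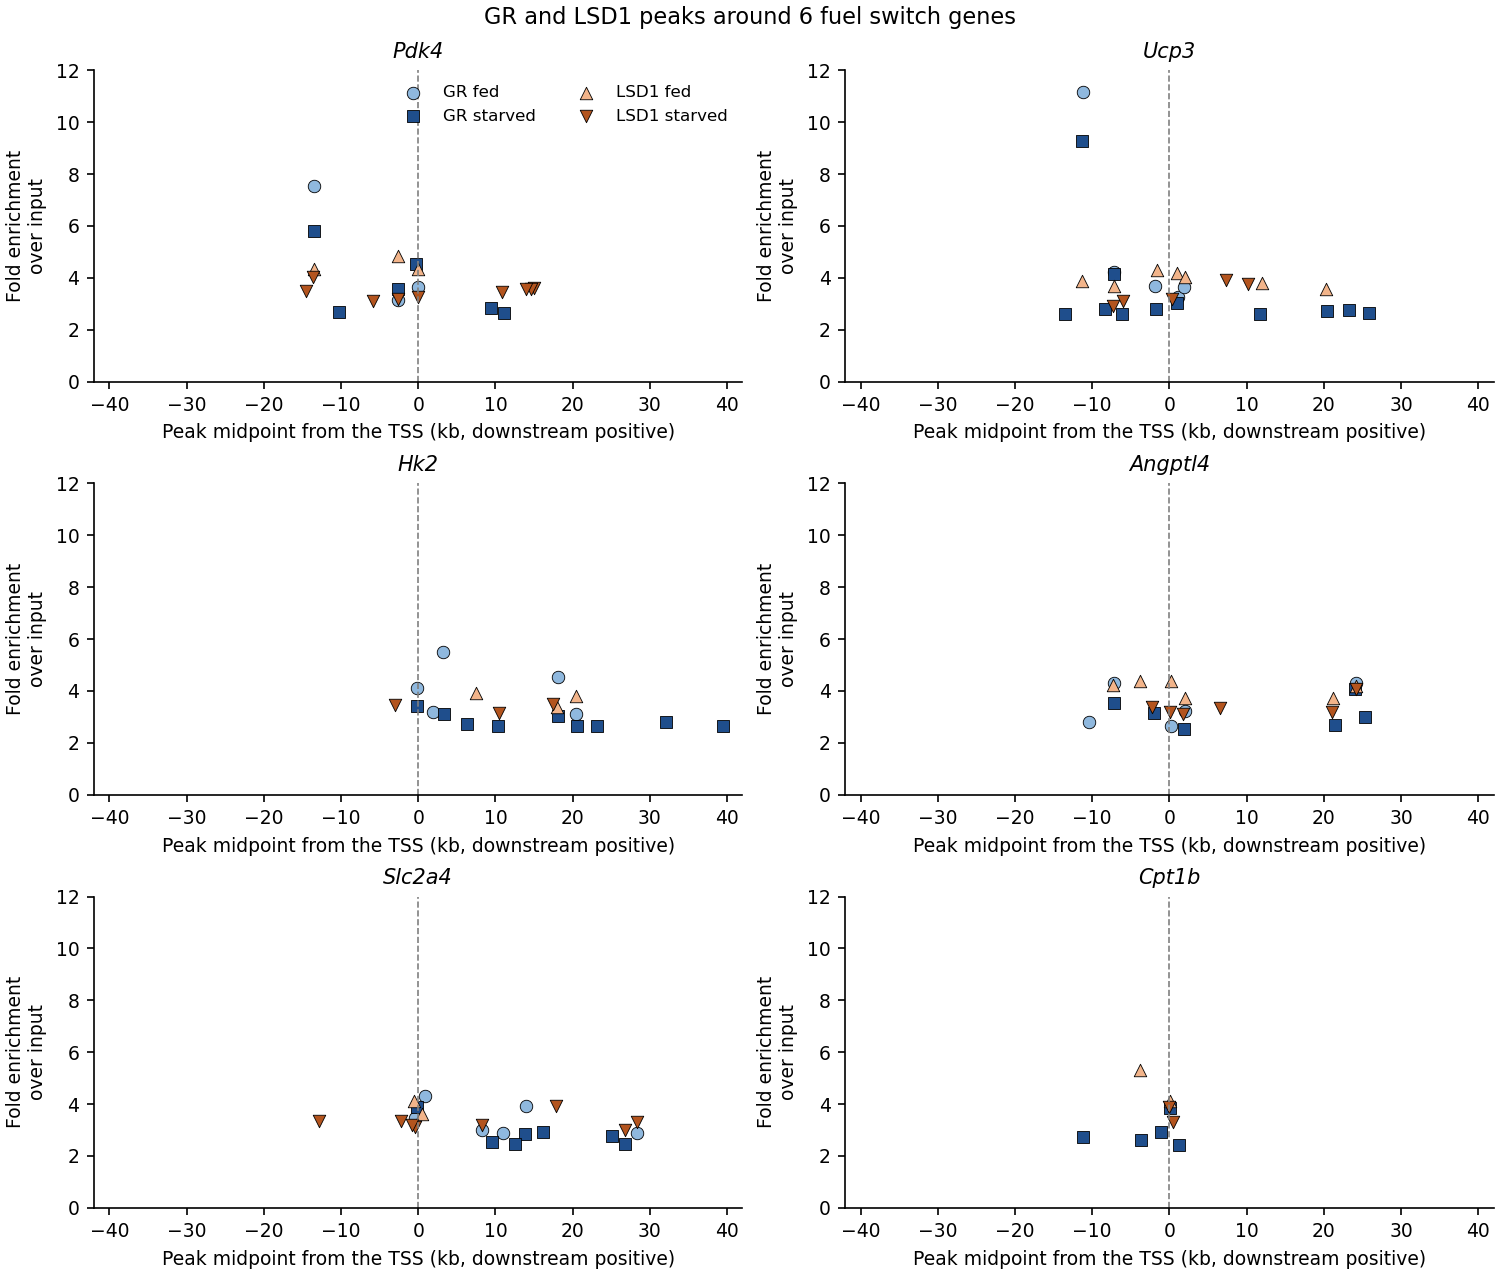
Each point is a GR or LSD1 peak of 1 library, by the distance of its midpoint from the TSS of the gene (kb, downstream positive) and its fold enrichment over input, for 6 fuel switch genes. The highest are the GR peaks upstream of Ucp3, 11.16 fed at 11.2 kb and 9.27 starved at 11.4 kb. Next stands the fed GR peak 13.5 kb upstream of Pdk4 (7.53). Of the other peaks, the starved Pdk4 peak at the same place (5.81) is the highest.

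Promoters of the members held GR and LSD1 more often than those of all genes. A GR peak lay at 4 of 10 promoters in fed muscle (Pdk4, Hk2, Slc2a4 and Acadm), against 13.4% of all genes. In starved muscle there were 7 of 10, with Pdk2, Cpt1b and Cd36 added, against 23.3%. A starved GR peak also overlapped the Ucp3 promoter, but its midpoint lay beyond it. LSD1 lay at 5 of 10 in fed muscle (Pdk4, Pdk2, Cpt1b, Slc2a4 and Acadm), against 22.4%, and at 6 of 10 in starved muscle, with Angptl4 added, against 16.2%. The fed LSD1 peak nearest the Angptl4 TSS had its midpoint 0.14 kb downstream, past the promoter limit of 100 bp. H3K9me1 was at 0 of 10 promoters fed (1.94% of all genes) and 1 of 10 starved, Pdk2 (3.1%). H3K9me2 was at 3 of 10 fed, Pdk2, Ucp3 and Acadm (22.3%), and at 0 of 10 starved (0.206%). RefSeq promoter sequences were at hand for 6 of the 10 members, and the 250 bases upstream of the TSS are shown for the 3 of these with a GR peak at the promoter in both conditions, on the strand of the gene in GRCm38.p6.
Pdk4, chr6:5496279-5496528: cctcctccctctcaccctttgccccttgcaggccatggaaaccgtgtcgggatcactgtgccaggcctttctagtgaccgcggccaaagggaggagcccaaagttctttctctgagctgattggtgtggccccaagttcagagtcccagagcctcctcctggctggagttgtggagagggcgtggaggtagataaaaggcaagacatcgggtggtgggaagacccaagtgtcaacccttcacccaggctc
Acadm, chr3:153944644-153944893: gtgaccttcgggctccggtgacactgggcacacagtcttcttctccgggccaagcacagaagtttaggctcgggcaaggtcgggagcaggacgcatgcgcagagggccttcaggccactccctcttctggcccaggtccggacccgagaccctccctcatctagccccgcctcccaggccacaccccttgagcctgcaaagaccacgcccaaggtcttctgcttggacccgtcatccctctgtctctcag
Hk2, chr6:82774455-82774704: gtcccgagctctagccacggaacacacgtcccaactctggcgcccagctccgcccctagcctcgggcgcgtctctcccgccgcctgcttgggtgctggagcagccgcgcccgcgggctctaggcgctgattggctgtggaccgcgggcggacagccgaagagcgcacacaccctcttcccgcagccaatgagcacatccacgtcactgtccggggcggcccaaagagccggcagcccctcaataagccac
No GRE-like or DR1-like sequence is in these stretches, so there are no capitals. Their GC content was 58.8% for Pdk4, 64.0% for Acadm and 69.6% for Hk2. Of all 32851 promoters in the table, 0.164% hold a GRE-like and 3.86% a DR1-like sequence.

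The question of starvation was whether GR and LSD1 sat at more places near these genes without food. Taking the lists as deposited, GR peaks were more numerous in the starved library at 9 of 10 members and as many at Acadm, where 56.4% of all genes had more and 4.26% fewer. LSD1 peaks were more numerous at 6 members (Pdk4, Pdk2, Lpl, Slc2a4, Cd36 and Acadm), as many at Angptl4, Cpt1b and Hk2 and fewer at Ucp3, against 65.3% of all genes with more and 11.5% with fewer. These numbers moved with the length of the lists. With both GR lists at the same number of peaks, taken by fold enrichment, 2 members had more starved (Pdk4 and Cpt1b), 4 fewer (Pdk2, Angptl4, Hk2 and Slc2a4) and 4 as many, and over all genes 20.5% had more and 20.2% fewer. With a q-value of at most 0.01 it was 3 members more and 3 fewer for GR, against 24.9% and 11.1% of all genes, and 1 more (Pdk2) and 6 fewer for LSD1, against 13.7% and 25.2%. For LSD1 with lists of equal number it was 1 more (Cd36) and 8 fewer, where 21.2% of all genes had more and 37.5% fewer. Cpt1b had more GR peaks starved than fed in each of these 3 GR counts, and Pdk4 in those from the lists as deposited and of equal number.

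Fold enrichment at sites called in both conditions was mostly the higher in fed muscle. Where a library had several peaks at a site, the highest was taken. Of 17 sites with a GR peak in both libraries, fold enrichment was higher fed at 15 and higher starved at 2, both at Pdk4. The medians were 4.13 fed and 3.41 starved. At the Slc2a4 TSS the fed value was that of the peak inside the gene, 4.33, against 3.87 starved. The fed promoter peak of that site, 3.48, was below the starved value. Of 14 sites with LSD1 in both, fold enrichment was higher fed at 12 and higher starved at 2, both at the Pdk2 promoter region. The medians were 4.14 and 3.24. These 14 include an Angptl4 and a Ucp3 site where the fed and starved LSD1 peaks did not themselves overlap. Over whole lists the medians moved the same way, from 3.29 to 2.70 for GR and from 4.03 to 3.44 for LSD1. Those medians take in every peak, also peaks with no counterpart in the other condition, and so are not a like measure. Fold enrichment at sites called in both conditions was not compared over the whole lists. Whether the members, or their sites with the higher value starved, differ from a shift of the whole libraries was therefore not tested.

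**Figure D4:**
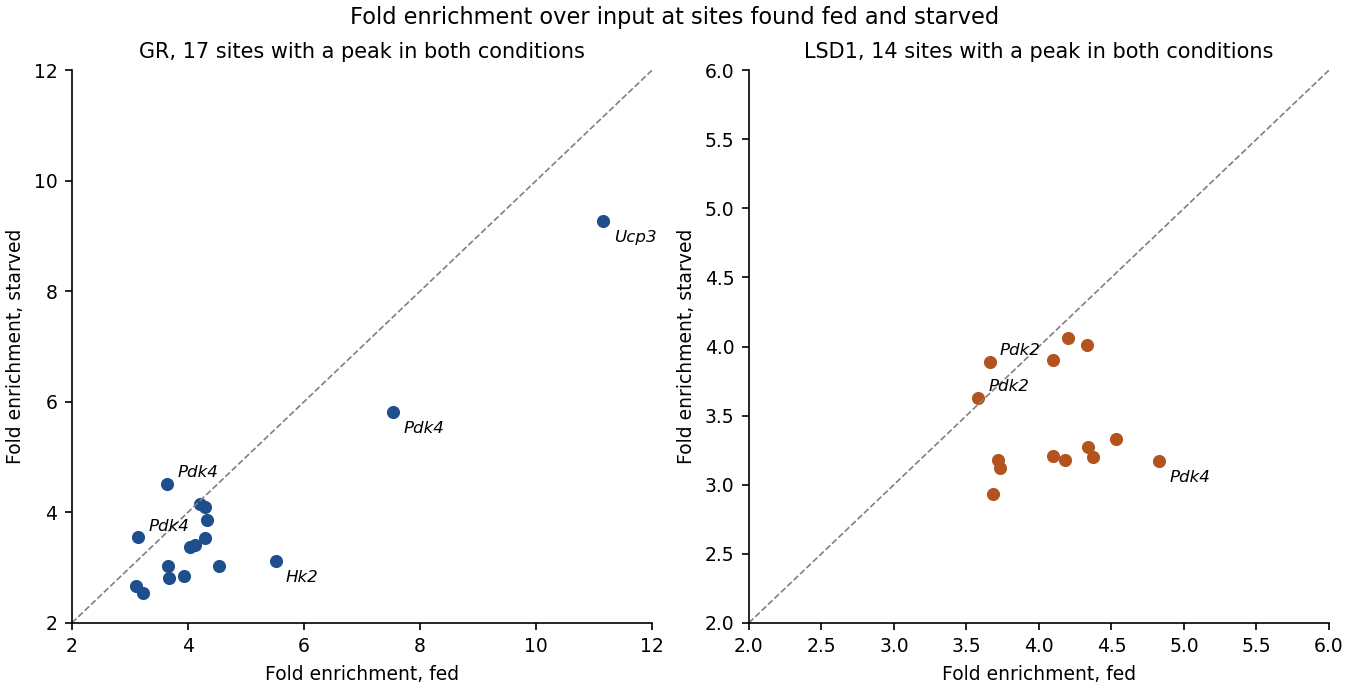
Each point is a site at a fuel switch gene with a peak in both conditions, for GR (left, 17 sites) and LSD1 (right, 14 sites). Its fold enrichment over input is given for the fed (x) and starved (y) library, the highest where a library had several peaks. The dashed line marks equal values. Most points lie below the line, and those above it are 2 Pdk4 sites for GR and 2 Pdk2 sites for LSD1.

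Most fed GR peaks at the members were found again in starved muscle, 19 of 28 (67.9%, exact 95% binomial interval 47.6 to 84.1%, for counting error alone), about the 65.8% of the whole list. For LSD1 it was 12 of 27 (44.4%, 25.5 to 64.7%), and 23.1% over the list. Overlap of at least 1 bp counted as shared. Of the 89 sites, 9 were in all 4 GR and LSD1 lists, at Pdk4 (3), Angptl4 (2), Ucp3 (2), Slc2a4 (1) and Acadm (1). At the intronic Angptl4 site and the Ucp3 site over its TSS, the fed and starved LSD1 peaks did not overlap each other. They were joined there through GR peaks. The most frequent kinds were those seen in 1 starved library alone, 26 sites with GR and 24 with LSD1, each spread over 9 genes. The starved lists are the longer ones, and most of their peaks have no fed counterpart anywhere. Over the lists 24.5% of starved GR peaks and 5.85% of starved LSD1 peaks overlapped a fed one, against 33.3% and 28.3% at the members. Fed muscle alone held 5 sites with GR and 4 with LSD1.

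GR and LSD1 peaks coincided at many of these sites. In fed muscle 18 of 28 GR peaks at the members (64.3%, exact 95% interval 44.1 to 81.4%) overlapped an LSD1 peak, against 48.3% of all GR peaks. Seen from LSD1, 18 of 27 peaks (66.7%) overlapped GR, against 42.8%. In starved muscle 16 of 51 GR peaks (31.4%, 19.1 to 45.9%) overlapped LSD1, against 14.7%, and 18 of 46 LSD1 peaks (39.1%) overlapped GR, against 9.14%. The peaks at the members were longer than those of their lists, with a median of 386.5 bp against 277 bp for GR fed and of 250 bp against 196 bp for LSD1 fed, and the part of length in the overlap was not tested. Which input each list was called against is not given in the sources used here, so that lists of one condition may share a control.

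At the members H3K9me2 showed a difference between the libraries like that of the genome at large. The 69 fed peaks were low, between 2.66 and 4.49 in fold enrichment, and 0 of 69 were overlapped by a peak of the starved list, where 0.293% of all fed peaks were. Numbers were lower starved at 10 of 10 members and at 94.9% of all genes. With both lists cut to the same number of peaks by fold enrichment, 1 fed peak at 1 member was left. GR peaks of fed muscle at the members overlapped a fed H3K9me2 peak in 2 of 28 cases (7.14%, against 16.5% over the list), and LSD1 peaks in 4 of 27 (14.8%, against 16.8%). H3K9me1 peaks numbered 8 fed and 13 starved, and 0 of 8 fed peaks overlapped a starved one, against 2.79% over the list. Of the 4 members with H3K9me1 in fed muscle (Angptl4, Ucp3, Lpl and Hk2), Lpl and Hk2 had none in starved muscle, and 6 members had more starved than fed and 3 fewer, against 51.3% and 13.5% of all genes. As the fed and starved libraries of both marks carry different codes, condition and code cannot be told apart here.

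The GRE-like sequence was found at 1 site of the members and DR1-like sequences at several. A GRE-like sequence was in 1 of 28 fed GR peaks and 1 of 51 starved ones, both being the Hk2 intronic site, and in 2.16% and 0.709% of all GR peaks. The match there, AGAACAattTGTTCT, had no mismatch. A DR1-like sequence was in 4 of 28 fed GR peaks (14.3%, exact 95% interval 4.03 to 32.7%), against 5.96% of the list. In starved GR peaks it was in 6 of 51 (11.8%, 4.44 to 23.9%), against 6.28%. For LSD1 it was in 4 of 27 fed peaks (14.8%, 4.19 to 33.7%), against 3.33%, and in 1 of 46 starved ones (2.17%), against 1.78%. Peaks at the members were longer than those of their lists, and the part of length in these shares was not tested. Those in fed GR peaks lay at Pdk4, Ucp3, Slc2a4 and Acadm. The single starved LSD1 peak was the one 13.5 kb upstream of Pdk4, and its 2 matches were AGGTGAaAGGTTA and AGGTGAaGGGTCA. A match is only a description of the letters, and none was tested for binding.

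The wider pathway, 51 further genes of pyruvate oxidation, glucose uptake and fat use, was covered in like manner. Of these, 39 had a GR peak in fed muscle and 48 in starved muscle, against 43.1% and 66.5% of all genes. An LSD1 peak was at 46 and 44, against 51.1% and 83.7%. H3K9me1 was at 24 and 42 (38% and 65.6% of all genes) and H3K9me2 at 49 and 2 (95.5% and 10.2%). GR peaks were more numerous starved at 41 and equal at 10, where 56.4% of all genes had more. LSD1 peaks were more numerous at 30, fewer at 12 and equal at 9. Of all genes, 65.3% had more LSD1 peaks starved and 11.5% fewer. Promoter peaks of GR were found at 22 genes in fed and 27 in starved muscle, against 13.4% and 23.3% of all genes. Those of LSD1 were at 29 and 17, against 22.4% and 16.2%. By role, 9 of 9 genes of lipid uptake and lipolysis and 11 of 13 of beta-oxidation had a GR peak in fed muscle, and 7 of 12 of the pyruvate dehydrogenase complex and its regulators. Each stands beside the same 43.1% of all genes. The values below are the highest among a gene's GR peaks of q-value at most 1e-05, taken in each condition on its own. The fed and the starved value may therefore be of different sites. Among the 8 genes with the highest fed GR peak of q-value at most 1e-05 in both conditions, Plin5, which coats lipid droplets at mitochondria, stood at 8.80 fed and 8.03 starved. Pdp1, the phosphatase that reopens pyruvate dehydrogenase against the kinases, stood at 8.27 and 6.00. Tbc1d1, a brake on glucose transporter traffic, stood at 6.16 and 4.26 and Ppara, a fatty acid receptor, at 5.86 and 4.03. Its partner Rxra stood at 5.52 and 4.84, and Acacb, which makes the malonyl-CoA that inhibits CPT1B, at 5.10 and 4.96. Txnip, an inhibitor of glucose uptake, was the one of the 8 with the higher value starved, 5.00 fed and 5.95 starved, and Fabp3, the muscle fatty acid binding protein, stood at 4.71 and 4.08. Pdk3, Pdha1 and Pparg had no GR peak in either condition. Pdk3 and Pdha1 lie on chromosome X and also had 0 LSD1 and 0 H3K9me2 peaks, fed and starved. Both are among the 12 genes of the pyruvate dehydrogenase complex and its regulators. Whether chromosome X as a whole differs in these lists was not tested.

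The members most alike in their numbers of peaks over the 8 lists were Pdk4 and Slc2a4, with a Euclidean distance of 1.14 on the log2(number + 1) scale, followed by Angptl4 and Ucp3 at 1.28 and Cd36 and Acadm at 1.71. Lpl was the farthest from the others, 2.31 from its nearest, Cd36. In the wider pathway the genes nearest to Pdk4 were Cpt1a, then Pdp1 at 1.51 and Slc27a1 at 1.54. The distance is a description over 8 libraries.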

How the data were processed

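The 8 ChIP-seq peak lists of skeletal muscle (GR, LSD1, H3K9me1 and H3K9me2, fed or starved for 24 h) were used as deposited, each called by the authors on 1 library against input. According to the methods of the study, reads were mapped to mm10 with Bowtie, those in regions of a human blacklist were removed, and broad peaks were called with MACS2 and kept at a false discovery rate of 0.01. The peak names in the files carry Bowtie2, and the deposited lists hold q-values of up to 0.0925 to 0.0998, above that rate, although both GR lists and the LSD1 fed list hold as many peaks as the study describes. The LSD1 starved list is far longer than described, where the study has it shorter than the fed list, and may be another version. The bcl2fastq version 2.20.0.422 is from the submitters' processing notes.

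Of each peak, the deposited fold enrichment (a ratio of ChIP signal over input) and the deposited −log10 q-value were used, the latter turned into a q-value (FDR of the call). The deposited −log10 p-value and the score of the authors, an integer for display, were read but not used. Read depth is not in these files and is unknown, so no library size could be set beside a peak, and intervals cover counting error only.

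Genes, TSSs and exons were taken from curated RefSeq transcripts of GRCm38.p6 (45756 transcripts, 26180 genes). Peaks were given to genes by midpoint, to the gene body or within 30 kb of a TSS, and promoters were 1000 bp upstream to 100 bp downstream of a TSS. Motifs were searched on both strands over whole peaks. Sequences are from the genome and RefSeq promoter table of GRCm38.p6. Analyses were run in Python 3.11.15 with pandas 2.3.3, numpy 2.4.6, scipy 1.17.1, pysam 0.24.0 and matplotlib 3.10.9, and were tested on simulated data. As each group is 1 library, no test was made, and counts are set beside the same over all genes. Named were the 10 members with their numbers in every list, the highest peak per list, GR and LSD1 promoter peaks, GR peaks of q-value at most 1e-05, and of the pathway list 8 genes by fed GR fold enrichment and those without a GR peak. Other features were named after their values were seen. The members and lists were chosen with earlier results of these data known. Alternatives were other peak thresholds, lists of equal length, merged peaks, other windows and promoters, other overlap rules and other mismatch limits.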

Additional observations from a re-analysis of the deposited data

How the results depend on the processing

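Each result was recomputed with other settings, and a count was taken as unchanged within 1.5 times its value. The shares of overlapping peaks labelled unchanged lay within the exact 95% binomial interval of the main share, which is wide here. So the share of fed LSD1 peaks found starved, 44.4%, was labelled unchanged at 33.3%, where sharing needed 50% overlap. It was also labelled unchanged at 48.1%, with midpoints within 500 bp. With 1 library per group no library was left out, and no paired analysis was possible because no group has a second replicate. Of 281 recomputed counts and shares, 170 were unchanged and 111 moved. None of these moved when windows lost the gene body at 30 kb, when peaks within 1 kb were merged, when sharing needed 50% overlap or midpoints within 500 bp, when a peak needed only to touch the promoter, or for a GRE-like sequence without mismatch. Numbers of peaks at a single member were less stable, and 265 of 720 moved, among them 7 with merged peaks (such as GR starved at Cpt1b, 3) and 3 without the gene body (such as GR starved at Cd36, 1).

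With a q-value of at most 0.01, peaks at the members numbered 26 (GR starved), 13 (LSD1 fed), 3 (LSD1 starved), 2 (H3K9me1 fed), 7 (H3K9me1 starved) and 8 (H3K9me2 fed). Members with a peak numbered 2 for LSD1 starved, 1 for H3K9me1 fed and 5 for H3K9me2 fed, and promoters with a peak 3 (LSD1 fed), 1 (LSD1 starved) and 0 (H3K9me2 fed). Pathway genes with a peak numbered 19 for LSD1 starved and 0 for H3K9me2 starved. More peaks starved than fed were found at 3 members for GR and 1 for LSD1. The share of starved GR peaks with LSD1 and that of fed LSD1 peaks found starved both came to 7.69%. The share of fed GR peaks with LSD1 fell from 64.3% to 45.5%. That of fed GR peaks found starved rose from 67.9% to 77.3%. Both of these were labelled unchanged. With a q-value of at most 1e-05, GR peaks at the members numbered 13 fed and 10 starved, and LSD1, H3K9me1 and H3K9me2 fed peaks 0, so that members and promoters with such a peak were also 0 in these lists and 0% of GR peaks were shared with LSD1. Pathway genes with a peak numbered 17 and 19 for GR, 2 and 1 for LSD1, 1 and 0 for H3K9me1 and 1 and 0 for H3K9me2, fed and starved. GR was more numerous starved at 2 members and less numerous at 4, against 3.96% and 8.62% of all genes. LSD1 was more numerous at 0 and less numerous at 0, against 0.642% and 1.71%. With a fold enrichment of at least 5, members with a peak numbered 3 (GR fed), 2 (GR starved), 1 (LSD1 fed) and 0 in the other lists, with as many peaks, all 8 lists had 0 promoter peaks, and the shares of GR with LSD1 and of LSD1 fed found starved were 0%. Pathway genes then numbered 7 and 3 for GR, 5 and 2 for LSD1, 1 and 6 for H3K9me1 and 1 and 0 for H3K9me2. GR was more numerous starved at 0 members and less numerous at 1, against 0.668% and 4.93% of all genes. LSD1 was also more numerous at 0 and less numerous at 1, against 0.97% and 5.53%.

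With lists of equal length, peaks at the members numbered 25 (GR starved), 9 (LSD1 starved), 2 (H3K9me1 starved, at 2 members) and 1 (H3K9me2 fed, at 1 member). Promoters with a peak were 2 for LSD1 starved and 0 for H3K9me1 starved and H3K9me2 fed, and pathway genes 28 (LSD1 starved), 25 (H3K9me1 starved) and 11 (H3K9me2 fed). GR was more numerous starved at 2 members and LSD1 at 1. Within 10 kb of a TSS, peaks at the members numbered 18 and 24 for GR, 24 for LSD1 starved, 2 and 3 for H3K9me1 (at 2 and 3 members) and 28 for H3K9me2 fed, and pathway genes with H3K9me1 10 and 25. Counting only peaks with the member's TSS as the nearest left 40 H3K9me2 fed peaks, a promoter of 1 kb on each side gave 6 members with H3K9me2 fed, and leaving out the shortest peaks, an alternative chosen after seeing the data, left 5 H3K9me1 fed peaks. The comparisons of more or fewer peaks under other settings were also chosen after seeing the data. A DR1-like sequence with at most 1 mismatch was in 1 starved GR peak and in 0 of the other lists, and a GRE-like one with at most 2 mismatches in 2 starved GR peaks. The cause of these shifts was not tested beyond the shorter lists that the thresholds leave. Depth is unknown.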
